A study of Mus musculus with 20 samples.

Results

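The gene expression of mouse tail tendon tenocytes after 24 h with IGF1 was compared with that of the same kind of cells at 0 h. The comparison was chosen by its labels: the 4 libraries labelled 24 h and the 4 labelled 0 h, 8 of the 20 RNA-seq libraries of a time course. The cells were isolated from the tails of C57Bl/6 mice, adult and wild type. The 24 h cultures received 100 ng/mL recombinant IGF1, and the 0 h cultures received no cytokine. The other 12 libraries, 4 each at 1, 2 and 6 h with IGF1, serve below only to place the 24 h values in time. Of the 29986 genes in the count table, 13613 had enough reads to be tested, and they held 99.9% of the counts.

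Insulin-like growth factor 1 binds the IGF1 receptor, a tyrosine kinase that acts through insulin receptor substrates on the PI3K, AKT and mTOR pathway and on the RAS and ERK pathway. Secreted IGF binding proteins hold the factor in the matrix or keep it from the receptor, and proteases such as pappalysins release it. In tendon, tenocytes make and maintain a matrix of aligned collagen fibrils, and IGF1 is known there for raising cell division and matrix production.

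Every library of both times expressed tendon markers: 15 of 16 listed markers passed the filter on low counts, among them the transcription factors Scx and Mkx. Summed over those in the table, the markers took 68843 to 74524 CPM (TMM-scaled read counts per 1e6 reads) at 24 h and 73272 to 85004 CPM at 0 h. The type I collagen genes Col1a1 and Col1a2 made up most of each sum. The ranges therefore say little about the other markers, which are taken up below. The libraries held 13734425 to 16762285 reads assigned to genes at 24 h and 18666812 to 22282231 at 0 h, so the 24 h group was sequenced to 0.734 of the depth of the 0 h group. All pairs of libraries of 1 time differed by more than counting noise, with chi-squared per degree of freedom of 2.88 to 4.51 at 24 h. Among the 0 h libraries, replicate 1 stood apart, with 8.4 to 9.9 against each other replicate, while the remaining pairs gave 3.95 to 4.28. In 0 h replicate 1 a ribosomal RNA gene was at 2160 CPM, against 832 to 1000 CPM in the other 0 h libraries. At 24 h that gene was at 1100 to 1340 CPM. Its bearing on the results was not tested. The first principal component of the 8 libraries carried 52.5% of the variance and separated all 4 libraries at 24 h from all 4 at 0 h. The labels do not say whether replicates are separate mice or separate dishes, so the p-values measure the spread between these libraries, which may be technical. Untreated cultures kept for 24 h were not analysed here, and IGF1 and time in culture therefore cannot be told apart.

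At 24 h, 4911 genes differed from 0 h, which is 36.1% of those tested (edgeR's quasi-likelihood test, Benjamini-Hochberg adjusted p under 0.05). Of them 2201 were higher at 24 h (16.2%) and 2710 were lower (19.9%). Most of these differences were small: 365 genes (2.68%) were higher by 2-fold or more and 233 (1.71%) lower by 2-fold or more. All 4 libraries at 24 h lay above all 4 at 0 h for 2038 genes (15%) and below them for 2435 (17.9%). The median log2 fold change over all genes tested was -0.01, so the changes below are read against a centre near 0. Counts of listed genes called at 24 h against 0 h are read against the shares of all genes, 16.2% higher and 19.9% lower. Each change is given as the log2 fold change of 24 h over 0 h ± its standard error.

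**Figure D1:**
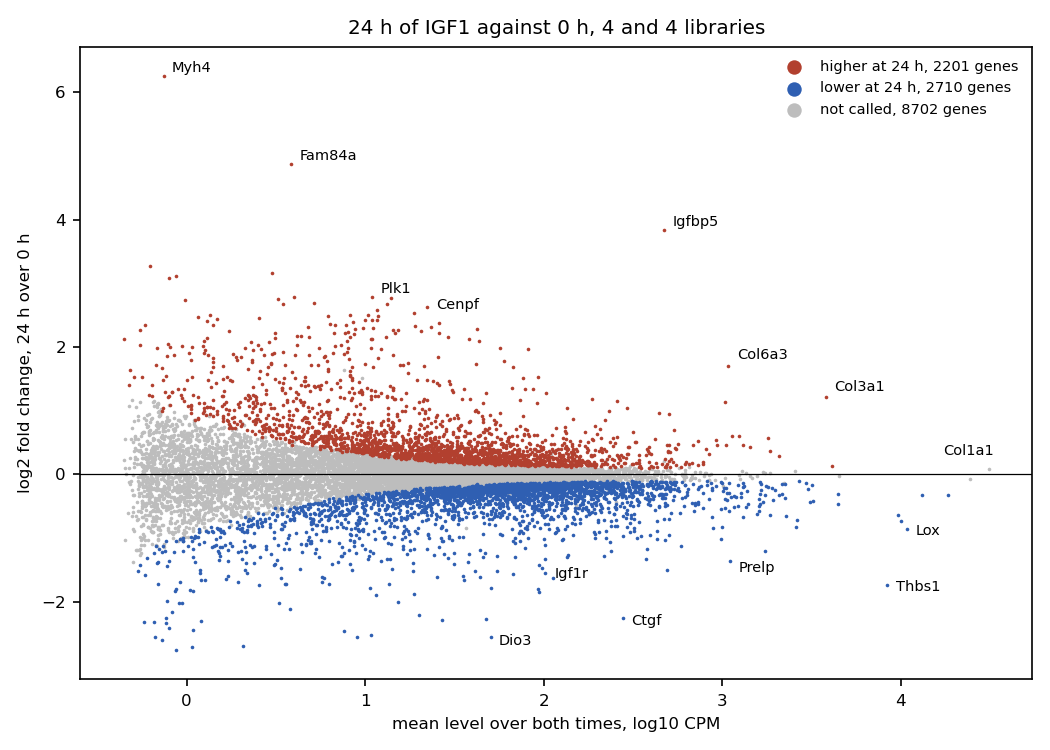
Log2 fold change of 24 h over 0 h (vertical axis) against mean level in log10 CPM (horizontal axis) for the 13613 genes tested. Red points are the 2201 genes called higher at 24 h, blue points the 2710 called lower and grey points those not called; Igfbp5, Col3a1 and Col6a3 lie high among strongly expressed genes, and Thbs1 and Lox lie low.

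Igfbp5, which encodes a binding protein that holds IGFs in the extracellular matrix, was among the most changed genes at any level. It lies on mouse build GRCm38 at chr1:72857932-72874884, minus strand (ENSMUSG00000026185). It had 844, 795, 949 and 943 CPM at 24 h, against 53.9, 64.4, 70.98 and 57.8 CPM at 0 h. The 24 h libraries were 14.3-fold higher on average than the 0 h libraries (3.84 ± 0.094, adjusted p = 6.41e-11). Fam84a changed more on the log scale (4.87 ± 0.29, adjusted p = 6.44e-15) but was a low gene: 6.92, 5.87, 8.09 and 8.87 CPM at 24 h, against 0.419, 0.254, 0.165 and 0.142 CPM at 0 h. Further large rises were ranked among called genes with a mean of at least 5 CPM at either time and no overlap of the libraries. Gene models without a proper name were left out. The other 10 largest rises by this rule included 8 genes of mitosis (Plk1, Kif14, Aspm, Cdc25c, Kif18b, Ccnb2, Cenpf and Bub1b), with log2 fold changes of 2.58 to 2.79.

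The largest falls by the same rule were of mixed function. Dio3, the deiodinase that inactivates thyroid hormone, had 15.02, 17.1, 15.04 and 11.7 CPM at 24 h, against 89.2, 81.3, 90.5 and 83.4 CPM at 0 h (-2.55 ± 0.08, adjusted p = 1.42e-21). Serpind1, a serum inhibitor of thrombin also called heparin cofactor II, had 3.18, 3.30, 3.39 and 2.94 CPM at 24 h, against 20.1, 15.7, 19.9 and 17.9 CPM at 0 h (-2.52 ± 0.13, adjusted p = 4.14e-16). The rule kept only genes whose groups did not overlap, so the lack of overlap in these and all other genes ranked by it is no separate support. Ctgf, a matricellular protein induced by TGF-beta and YAP (ENSMUSG00000019997, chr10:24595442-24598683, plus strand), had 95.7, 114, 83.2 and 89.7 CPM at 24 h, against 397, 517, 425 and 495 CPM at 0 h. The log2 fold change of Ctgf was -2.26 ± 0.13 (adjusted p = 9.94e-06). The falls of Nog, a secreted antagonist of BMPs (-2.00 ± 0.12), and Pim1, a serine and threonine kinase that promotes survival (-2.21 ± 0.10), were of like size.

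Genes of the G2 phase and mitosis formed the most uniform group. All 36 listed members were higher at 24 h, with a median log2 fold change of 2.29, where 16.2% of all genes were called higher and their median was -0.01. Ccnb2 (cyclin B2, a partner of Cdk1 at entry into mitosis, chr9:70407692-70421547, minus strand) had 25.7, 22.8, 24.4 and 18.3 CPM at 24 h, against 3.82, 3.91, 4.17 and 2.47 CPM at 0 h (2.67 ± 0.14, adjusted p = 3.71e-16). Cenpf, a protein of the kinetochore, had 44.1, 42.1, 36.1 and 31.6 CPM at 24 h, against 5.73, 8.89, 4.61 and 5.65 CPM at 0 h (2.62 ± 0.16, adjusted p = 1.38e-09). Hmmr, a microtubule-binding protein of the spindle, had 34.3, 34.6, 28.1 and 30.9 CPM at 24 h, against 4.43, 5.84, 7.03 and 4.80 CPM at 0 h (2.54 ± 0.12, adjusted p = 1.06e-17). In each of these genes 24 h replicates 3 and 4 were lower than replicate 1. Every 24 h library of Hmmr was above every 0 h library, which the ranking rule had required of Ccnb2 and Cenpf. Plk1, the kinase that drives mitotic entry, rose by 2.79 ± 0.15. Cdk1 itself had 29.2 to 37.8 CPM at 24 h, against 12.3 to 13.3 CPM at 0 h (1.46 ± 0.09, adjusted p = 1.47e-14). The smallest rises of the list were those of the transcription factors that switch these genes on, Mybl2 (1.03 ± 0.32, adjusted p = 0.0868 without 24 h replicate 3) and Foxm1 (1.18 ± 0.11). In bulk RNA, more dividing cells and more mRNA per dividing cell cannot be told apart.

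The rise of the mitotic genes was late. Against the same 0 h libraries, the median of the list was 0.12 at 1 h, -0.0065 at 2 h and 0.013 at 6 h. From 24 h against 6 h directly, 35 of 36 members were higher at 24 h, with a median of 2.18, while 48.9% of the 13522 genes tested in that comparison were called and 22.6% were higher. Ccnb2 averaged 3.59, 4.21, 4.51, 2.76 and 22.8 CPM at 0, 1, 2, 6 and 24 h.

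Promoters are shown for 3 mitotic genes, Ccnb2, Cenpf and Hmmr. They were picked as the largest rises among the listed genes whose promoter holds 2 short elements. The first is TTTGAA, the core of the cell cycle genes homology region (CHR) bound by the DREAM and MuvB complexes. The second is CCAAT, the NF-Y box. The 3 promoters hold both by this choice, whereas Plk1, which rose more, held CCAAT but not TTTGAA. The sequences run from 250 bases before to 30 bases after the annotated start, 280 bases in all, 5′ to 3′ on the gene's strand, from RefSeq, build GRCm38.p6. Capitals mark TTTGAA and CCAAT read on either strand, so that TTCAAA and ATTGG are matches too. Ccnb2 is from chr9:70421525-70421804 (minus strand), Cenpf from chr1:189688057-189688336 (minus strand) and Hmmr from chr11:40733408-40733687 (minus strand).
Ccnb2: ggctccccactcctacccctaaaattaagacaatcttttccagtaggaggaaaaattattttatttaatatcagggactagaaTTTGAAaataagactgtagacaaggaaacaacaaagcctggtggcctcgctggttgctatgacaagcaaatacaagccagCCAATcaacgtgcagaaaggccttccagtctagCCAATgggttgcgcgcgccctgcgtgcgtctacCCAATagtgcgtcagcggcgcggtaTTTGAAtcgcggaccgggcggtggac
Cenpf: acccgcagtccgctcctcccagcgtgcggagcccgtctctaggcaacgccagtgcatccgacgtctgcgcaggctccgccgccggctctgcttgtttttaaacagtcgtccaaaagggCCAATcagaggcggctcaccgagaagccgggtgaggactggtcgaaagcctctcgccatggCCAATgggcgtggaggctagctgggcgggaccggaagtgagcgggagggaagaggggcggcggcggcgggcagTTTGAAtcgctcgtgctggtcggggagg
Hmmr: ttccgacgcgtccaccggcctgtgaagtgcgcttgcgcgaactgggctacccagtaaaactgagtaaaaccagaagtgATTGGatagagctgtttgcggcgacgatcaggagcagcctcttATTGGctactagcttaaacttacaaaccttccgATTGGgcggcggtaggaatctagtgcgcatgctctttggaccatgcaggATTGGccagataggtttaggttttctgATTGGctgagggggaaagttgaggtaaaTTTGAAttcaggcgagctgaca
Of the 36 mitotic genes, 30 matched a promoter in the RefSeq table, and 16 of them (53.3%) held both elements. Among all 27025 genes with a promoter there, 7.37% held both, and a gene counted if any of its promoters matched. TTTGAA, with or without CCAAT, was in 18 of 30 (60%) against 19.5% of all genes. CCAAT, with or without TTTGAA, was in 22 of 30 (73.3%) against 39.7%. The match is of letters only and does not show that a factor bound there.

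Genes of the G1 and S phases rose less and earlier. Of 34 tested members, 30 were higher at 24 h and none was lower, with a median of 0.73. Mcm5, a subunit of the replicative helicase, had 17.5, 23.8, 20.4 and 17.7 CPM at 24 h, against 8.52, 8.03, 6.04 and 7.83 CPM at 0 h. Its groups did not overlap (1.38 ± 0.12, adjusted p = 6.64e-11). Mcm10, which helps to activate that helicase, rose by 1.87 ± 0.21, Cdc6, which loads it, by 1.62 ± 0.28, and Ccne1 (cyclin E1) by 1.22 ± 0.12. At 6 h, 24 members were already higher than at 0 h, with a median of 0.46, where 50.5% of all genes were called and 25.9% were higher. Ccnd1, the cyclin D1 that growth factors induce in early G1, averaged 303 ± 14.2 CPM at 24 h and 303 ± 11.9 CPM at 0 h (adjusted p = 0.985), and the other members not called were Ccnd3, Rrm1 and Fen1. Of the exonic bases of Ccnd1, 23.4% are shared with Oraov1 on the opposite strand.

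Of 10 CDK inhibitors and RB family genes, 3 rose and 2 fell, where 16.2% of all genes were higher and 19.9% lower, so the count does not set the list apart. Cdkn2d, an INK4 inhibitor of cyclin D kinases, was higher in all 24 h libraries than in any at 0 h, at 10.2, 10.4, 12.7 and 13.9 CPM at 24 h, against 7.50, 6.61, 5.05 and 6.88 CPM at 0 h (0.85 ± 0.14, adjusted p = 1.21e-05). Cdkn1c, a CIP/KIP inhibitor high in quiescent cells, had 5.40, 5.09, 5.68 and 7.53 CPM at 24 h, against 10.2, 9.76, 10.9 and 11.9 CPM at 0 h (-0.85 ± 0.14, adjusted p = 1.36e-05). Targets of p53 were higher in 15 of 17 cases, with a median of 0.33. Perp, a desmosomal and pro-apoptotic membrane protein, rose most, to 38.5, 40.7, 34.8 and 36.6 CPM at 24 h, against 14.1, 16.01, 13.2 and 13.8 CPM at 0 h (1.40 ± 0.085, adjusted p = 8.75e-15). Apart from Perp and the cytokine Gdf15 (0.95 ± 0.21), the rises in that list were at most 0.54 (Sesn2), and Cdkn1a, the CDK inhibitor that p53 induces, rose by 0.26 ± 0.043.

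**Figure D2:**
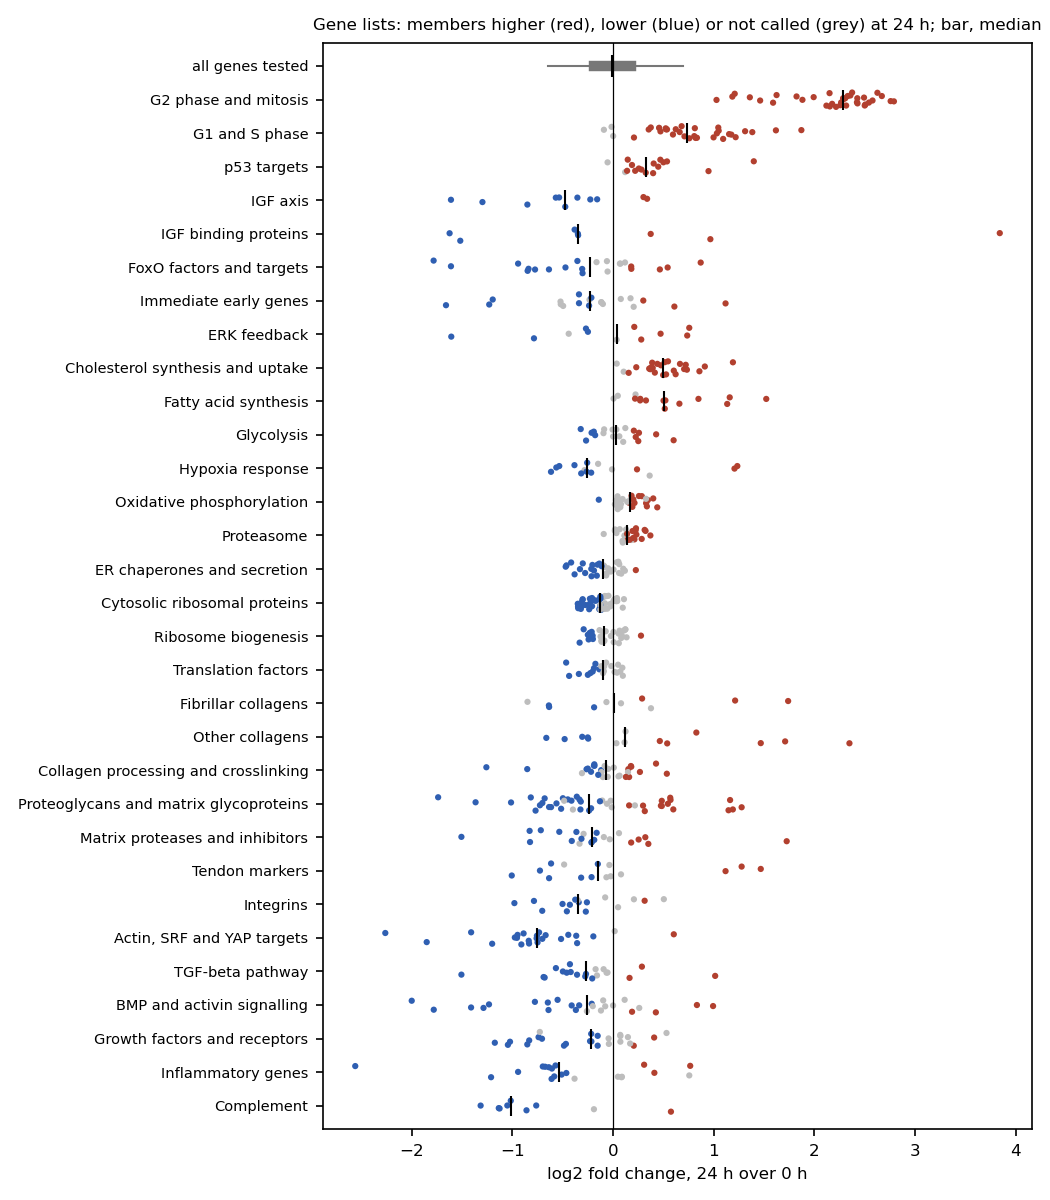
Log2 fold change of 24 h over 0 h for the members of 31 gene lists, 1 point per gene (red, higher at 24 h; blue, lower; grey, not called), with the list median as a black bar. The top row gives all genes tested as the median, the 25th to 75th percentiles (thick line) and the 5th to 95th (thin line); all 36 mitotic genes lie right of 1, and actin, SRF and YAP targets lie left of 0 except Tagln2 and Tpm2.

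The IGF system itself changed. All 11 tested ligand, receptor and adaptor genes were called, 9 lower and 2 higher, where 36.1% of all genes were called. In the fit of all 20 libraries 6 of these were called lower and 1 higher. Igf1r, the receptor (ENSMUSG00000005533, chr7:67952827-68233668, plus strand), had 76.1, 78.6, 79.1 and 79.3 CPM at 24 h, against 172, 214, 179.8 and 203 CPM at 0 h. The 24 h libraries lay close together and far below the 0 h libraries (-1.30 ± 0.058, adjusted p = 7.54e-18). Irs2, an adaptor that couples the receptor to PI3K (chr8:10984681-11008458, minus strand), had 13.4, 12.9, 12.9 and 10.5 CPM at 24 h, against 41.7, 36.4, 37.5 and 36.4 CPM at 0 h (-1.61 ± 0.089, adjusted p = 8.49e-16). Irs1, the other main adaptor, had 63.4, 61.8, 57.8 and 65.7 CPM at 24 h, against 96.4, 98.8, 84.5 and 88.5 CPM at 0 h (-0.57 ± 0.059, adjusted p = 2.35e-09), although its adjusted p was 0.0889 in the fit of all 20 libraries. Igf1, the cells' own transcript of the ligand, was lower in every 24 h library, at 135, 132, 134 and 139 CPM at 24 h, against 181, 202, 209 and 191 CPM at 0 h (-0.54 ± 0.048, adjusted p = 9.83e-11). Insr, the insulin receptor, fell (-0.35 ± 0.058), and Stc2, a glycoprotein that inhibits pappalysins, (-0.85 ± 0.064). The 2 genes that rose were Grb10, an adaptor that restrains the receptor (0.30 ± 0.043), and Igf2r, which clears IGF2 from the surface (0.34 ± 0.04, adjusted p = 0.0945 in the fit of all 20 libraries).

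The binding proteins split. Besides Igfbp5, Igfbp3, the main carrier of IGF1 in serum, was higher, at 569, 543, 653 and 588 CPM at 24 h, against 295, 287, 313 and 309 CPM at 0 h (0.97 ± 0.048, adjusted p = 8.09e-17). Igfbp4 rose less, to 2003, 2177, 2092 and 2069 CPM at 24 h, against 1750.5, 1538, 1560.1 and 1587 CPM at 0 h (0.37 ± 0.041, adjusted p = 5.63e-09). Igfbp2 (-0.35 ± 0.078), Igfbp6 (-0.38 ± 0.044) and Igfbp7 (-0.35 ± 0.054) fell by similar amounts, and 7.03% of the exonic bases of Igfbp7 are shared with Polr2b on the opposite strand. Both pappalysins, proteases that cut IGF binding proteins, fell: Pappa had 9.07, 10.2, 8.78 and 10.5 CPM at 24 h, against 25.9, 24.6, 26.1 and 33.9 CPM at 0 h (-1.52 ± 0.11, adjusted p = 3.80e-13), and Pappa2 had 2.22, 2.58, 3.73 and 2.94 CPM at 24 h, against 9.60, 9.45, 9.22 and 7.31 CPM at 0 h (-1.62 ± 0.17, adjusted p = 4.05e-09). No library of 1 time reached the range of the other in any of these genes.

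The members differed in their course. Igfbp5 averaged 61.8, 88.2, 282, 288 and 883 CPM at 0, 1, 2, 6 and 24 h, and its 24 h level exceeded that at 6 h (1.61 on the log2 scale, adjusted p = 1.20e-08). Igf1r went down step by step, with means of 192, 176, 145, 109 and 78.3 CPM at the same times. Irs2 was lowest at 2 h and stood at 38, 7.59, 4.85, 8.96 and 12.5 CPM over the 5 times, so at 24 h it was above 6 h (0.48, adjusted p = 0.00223) and still below 0 h. The comparisons with 0 h share the same 4 control libraries, and the 2 h libraries varied widely in some genes, Igfbp5 among them, where the SD at 2 h was 173 CPM.

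**Figure D3:**
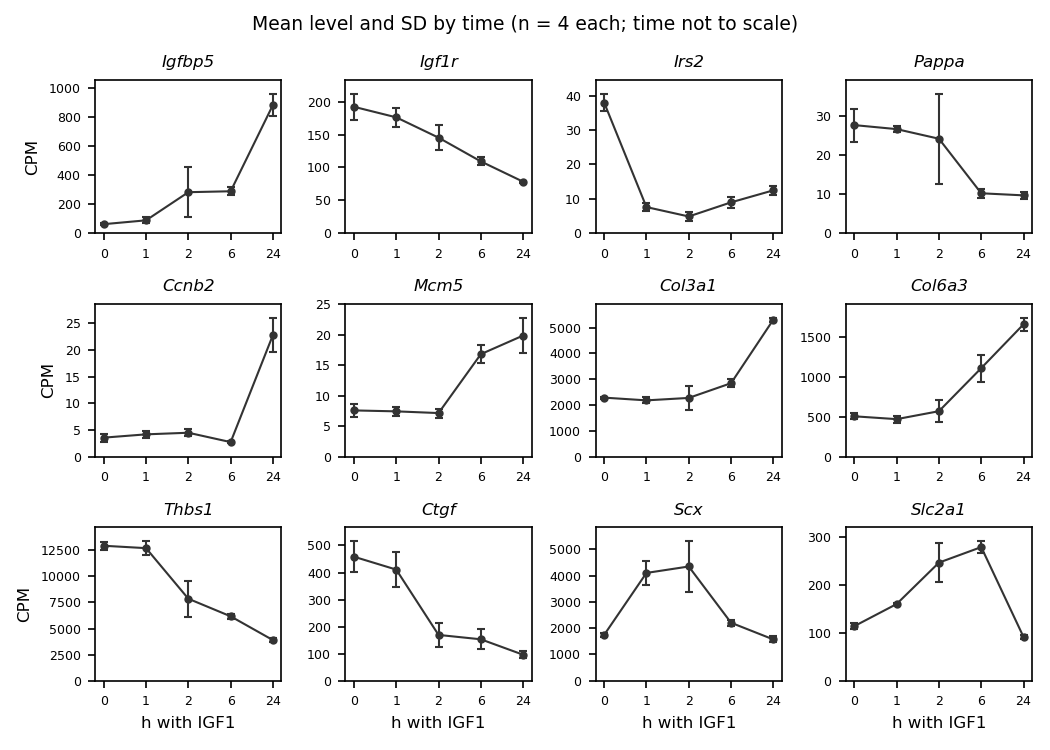
Mean CPM and SD (n = 4 libraries per time) of 12 genes at 0, 1, 2, 6 and 24 h with IGF1, on an ordinal time axis. Igfbp5, Ccnb2, Col3a1 and Col6a3 are highest at 24 h, Igf1r, Thbs1 and Ctgf are lowest at 24 h, and Scx and Slc2a1 peak earlier and lie below their 0 h mean at 24 h.

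FoxO factors activate their targets when AKT is quiet, and many of these targets were still below 0 h. Of 22 listed FoxO genes and targets, 11 were lower at 24 h and 5 higher, where 19.9% of all genes were lower, with a median of -0.23. Against the same 0 h libraries that median was -0.73 at 1 h, -0.82 at 2 h and -0.64 at 6 h. In 24 h against 6 h, 17 of the 22 were higher at 24 h and 1 was lower, where 22.6% of all genes were higher and 26.3% lower. Pdk4, a kinase that shuts off pyruvate dehydrogenase, remained low, at 4.64, 5.15, 4.99 and 4.40 CPM at 24 h, against 16.6, 16.6, 17.3 and 15.7 CPM at 0 h (-1.78 ± 0.12, adjusted p = 1.80e-13). Klf15, a transcription factor of fasting metabolism, had 13.6, 15.5, 18.1 and 14.1 CPM at 24 h, against 32.5, 27.04, 31.6 and 27.1 CPM at 0 h (-0.94 ± 0.096, adjusted p = 1.39e-09). Txnip, which limits glucose uptake, fell (-0.77 ± 0.053). The genes of the factors themselves rose: Foxo3 had 86.05, 92.5, 92.02 and 89.5 CPM at 24 h, against 61.3, 63.8, 60.5 and 61.7 CPM at 0 h (0.54 ± 0.053, adjusted p = 6.42e-10), and Foxo1 rose by 0.46 ± 0.084. Sesn3, a sestrin that restrains mTORC1, rose by 0.87 ± 0.053.

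Immediate early genes, transcribed within minutes of a stimulus, were no longer high as a group. Of 20, 3 were higher at 24 h and 7 lower, against 15 higher and 1 lower at 1 h, when 8.35% of all genes were called higher and 6.67% lower. Egr1, a zinc finger factor, was the exception with the largest rise, at 60.9, 78.7, 56.1 and 53.5 CPM at 24 h, against 28.2, 32.7, 26.5 and 27.6 CPM at 0 h (1.12 ± 0.11, adjusted p = 3.62e-07). Maff, a small bZIP factor, had 14.6, 21.4, 18.03 and 14.7 CPM at 24 h, against 52.4, 60.3, 51.4 and 53.8 CPM at 0 h (-1.66 ± 0.093, adjusted p = 1.38e-14), and the nuclear receptor Nr4a1 fell (-1.23 ± 0.15). Among 11 feedback regulators of ERK, 5 rose and 4 fell. Dusp6, a phosphatase specific to ERK, had 12.9, 12.04, 10.8 and 9.64 CPM at 24 h, against 6.06, 7.57, 5.54 and 7.60 CPM at 0 h (0.76 ± 0.14, adjusted p = 5.53e-05). Dusp1, a phosphatase of several MAP kinases, went the other way, at 22.01, 26.01, 20.6 and 18.9 CPM at 24 h, against 71.1, 69.5, 63.2 and 62.8 CPM at 0 h (-1.61 ± 0.079, adjusted p = 5.42e-17). Without 0 h replicate 1 and 24 h replicate 4 together, 3 of the same 5 genes were called higher.

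Collagen genes changed one by one, not as a block. The fibrillar chains had 3 members higher and 3 lower of 10, with a median of 0.0068. Col3a1, whose type III collagen forms thin fibrils in growing and healing tendon (ENSMUSG00000026043, chr1:45311538-45349706, plus strand), had 5197, 5379, 5332 and 5325 CPM at 24 h, against 2341, 2279, 2252 and 2294 CPM at 0 h. The 24 h libraries were 2.32-fold higher on average and tightly grouped (1.21 ± 0.035, adjusted p = 1.29e-22). Col5a3, a chain of the type V collagen that controls fibril diameter, rose by 1.74 ± 0.077, from low levels: 58.6, 62.98, 67.1 and 69.1 CPM at 24 h, against 21.7, 18.7, 20.1 and 16.9 CPM at 0 h. Col5a2, another chain of type V, fell instead, with 7739, 7524, 7593 and 7297 CPM at 24 h, against 11823, 11884, 11251 and 11848 CPM at 0 h (-0.63 ± 0.035, adjusted p = 7.68e-16). Col5a1 rose by 0.29 ± 0.042, a call that a fit of all 20 libraries did not keep (adjusted p = 0.0515).

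The chains of type I collagen, the bulk of tendon, did not pass the test. Col1a1 had 31361, 31065, 33711 and 31742 CPM at 24 h, against 34779, 28903, 27831 and 29541 CPM at 0 h (0.079 ± 0.055, adjusted p = 0.297), and Col1a2 had 23816, 22976, 24553 and 23751 CPM at 24 h, against 27340.4, 23902, 23746 and 24526 CPM at 0 h (-0.066 ± 0.039, adjusted p = 0.201). In Col1a1 the groups overlapped because 0 h replicate 1 lay above every other library. Without that library Col1a1 was called higher at 24 h, by 0.15 (adjusted p = 2.5e-04), and 5 fibrillar chains were called higher in place of 3. The other addition was Col11a2, which was also called by DESeq2, with no count filter, without 24 h replicate 2 and with a replicate block (adjusted p = 8.72e-06) (0.38 ± 0.14 in the main comparison, adjusted p = 0.0796).

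The 3 chains of type VI collagen, the beaded filament around tenocytes, rose together. Col6a3 (ENSMUSG00000048126, chr1:90765923-90843971, minus strand) had 1695, 1542, 1735 and 1659 CPM at 24 h, against 559.6, 474, 499.9 and 495 CPM at 0 h (1.71 ± 0.046, adjusted p = 1.29e-22). Col6a1 had 1477, 1461, 1587 and 1532 CPM at 24 h, against 1201, 1030.2, 1055 and 1104 CPM at 0 h (0.46 ± 0.043, adjusted p = 1.72e-10), and Col6a2 rose by 0.54 ± 0.047. Col14a1, a collagen on the fibril surface, had 38.6, 44.4, 43.9 and 46.5 CPM at 24 h, against 16.96, 15.7, 14.7 and 15.3 CPM at 0 h (1.47 ± 0.081, adjusted p = 8.02e-16). The basement membrane chains Col4a1 (-0.25 ± 0.043) and Col4a2 (-0.31 ± 0.044) and the short-chain Col8a1 (-0.48 ± 0.045) and Col8a2 (-0.66 ± 0.077) fell. Over the 14 other collagens tested, 6 were higher and 5 lower.

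Enzymes that process and crosslink collagen went both ways, 8 higher and 10 lower of 28, counts that came to 5 and 5 in the fit of all 20 libraries. Lox, the lysyl oxidase that starts crosslinking (chr18:52516067-52529867, minus strand), had 8319, 7807, 7498 and 7277 CPM at 24 h, against 12950.3, 14286, 14257 and 14272 CPM at 0 h (-0.85 ± 0.041, adjusted p = 3.46e-17). Loxl2, a related oxidase, moved the other way, with 436, 447, 451 and 444 CPM at 24 h, against 311, 332, 339 and 341 CPM at 0 h (0.43 ± 0.041, adjusted p = 3.23e-10). Of the procollagen N-proteinases, Adamts3 fell to 27.8, 19.8, 21.8 and 21.3 CPM at 24 h, against 56.9, 49.9, 55.3 and 54.2 CPM at 0 h (-1.26 ± 0.082, adjusted p = 5.83e-14), while Adamts14 rose by 0.53 ± 0.10 and Adamts2 by 0.18 ± 0.044.

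**Figure D4:**
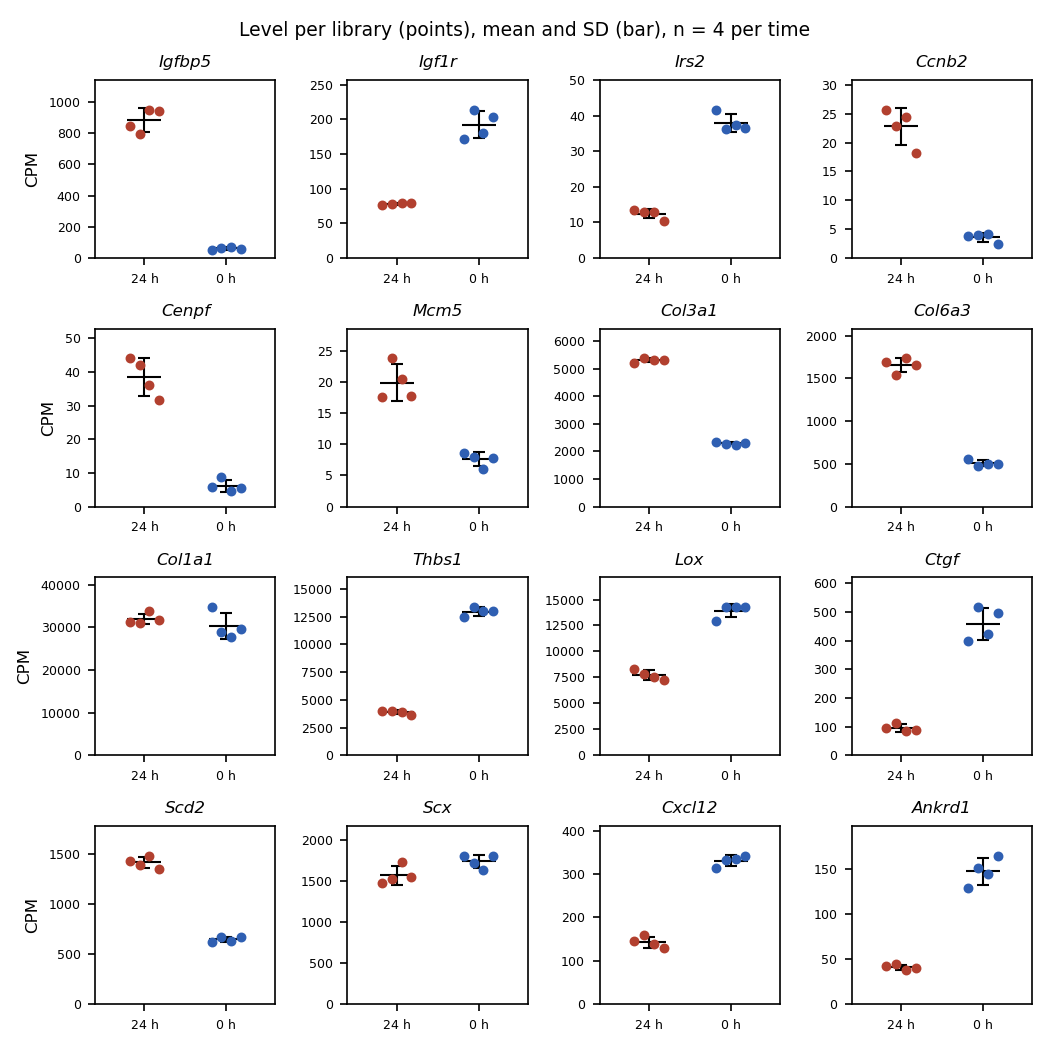
CPM in each of the 4 libraries at 24 h (red, left) and the 4 at 0 h (blue, right) for 16 genes, with the mean and SD as black bars, on axes that start at 0. The groups do not overlap in any panel except Col1a1, where 0 h replicate 1 is the highest library, and Scx. For Igfbp5, Ccnb2, Cenpf and Ctgf the ranking rule required this.

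Among proteoglycans and matrix glycoproteins, 14 of 43 rose and 22 fell, with a median of -0.24. Thbs1, thrombospondin 1, which activates latent TGF-beta (ENSMUSG00000040152, chr2:118111876-118127133, plus strand), had 3988, 3981, 3916 and 3654 CPM at 24 h, against 12416, 13366, 12984 and 13011 CPM at 0 h. Every 24 h library was far below every 0 h library (-1.74 ± 0.038, adjusted p = 8.89e-26). Prelp, a leucine-rich proteoglycan that anchors basement membranes to collagen, had 584, 644, 655 and 592 CPM at 24 h, against 1673, 1636, 1541 and 1525 CPM at 0 h (-1.36 ± 0.043, adjusted p = 1.42e-21). Thbs4, a thrombospondin of adult tendon, had 7412, 7599, 8133 and 7278 CPM at 24 h, against 13280.2, 11974, 12457 and 12589 CPM at 0 h (-0.73 ± 0.039, adjusted p = 4.42e-16). Fmod, which regulates fibril assembly in tendon, fell (-0.63 ± 0.054), Bgn (biglycan) (-0.41 ± 0.035), Sparc (-0.32 ± 0.033) and Fn1 (fibronectin) (-0.32 ± 0.037). Dcn (decorin) averaged 1551 ± 68.3 CPM at 24 h and 1576 ± 78.9 CPM at 0 h and was not called (adjusted p = 0.699).

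Among the matrix genes that rose, Vcan (versican, a large hyaluronan-binding proteoglycan) had 260.1, 249.6, 261 and 261 CPM at 24 h, against 99.2, 117, 120.5 and 116 CPM at 0 h (1.19 ± 0.051, adjusted p = 1.84e-18). Tgfbi, an adhesion protein first found as a TGF-beta target, had 98.9, 95.5, 111 and 101 CPM at 24 h, against 46.3, 43.7, 47.1 and 44.6 CPM at 0 h (1.16 ± 0.058, adjusted p = 7.60e-17). Postn (periostin) rose to 283, 361, 290.5 and 489.8 CPM at 24 h, against 157, 163, 164 and 159.7 CPM at 0 h, with 24 h replicate 4 well above the other 3 (1.15 ± 0.19, adjusted p = 0.00356). Fbn1, fibrillin 1 of elastic microfibrils, rose by 0.57 ± 0.04, and 20.1% of its exonic bases are shared with Gm9913 on the opposite strand, from which its reads cannot be told apart here. Kera, the proteoglycan keratocan, rose by 1.28 ± 0.21.

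Of 15 tendon markers tested, 3 rose and 7 fell. The bHLH factor Scx, which specifies tendon, was at 1473, 1525, 1733 and 1544 CPM at 24 h, against 1801, 1716, 1638 and 1811 CPM at 0 h. Its groups overlapped, and the small fall (-0.15 ± 0.044, adjusted p = 0.00747) was not called in the fit of all 20 libraries (adjusted p = 0.336). Mkx, a homeobox factor of tendon maturation, had 208, 186, 198 and 194 CPM at 24 h, against 222, 212, 240.5 and 236 CPM at 0 h (-0.21 ± 0.047, adjusted p = 5.18e-04). Scx was much higher between, with means of 1742, 4105, 4350.5, 2206 and 1569 CPM at 0, 1, 2, 6 and 24 h. Comp, a pentameric matrix protein that binds collagen, fell (-0.62 ± 0.074).

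Proteases and their inhibitors moved both ways, 5 higher and 12 lower of 22. Adamts5, the main aggrecanase of mice, had 725, 733, 739.6 and 686 CPM at 24 h, against 1185, 1364, 1266 and 1305 CPM at 0 h (-0.83 ± 0.042, adjusted p = 9.89e-17). Mmp14, a membrane collagenase, rose to 882, 947, 961 and 953 CPM at 24 h, against 783, 749, 718 and 747 CPM at 0 h (0.32 ± 0.04, adjusted p = 7.29e-08), and Adamts15, a versicanase, rose by 1.72 ± 0.19. In the fit of all 20 libraries 3 were called higher and 7 lower.

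Genes of the actin cytoskeleton and targets of SRF and YAP fell almost as uniformly as mitotic genes rose. Of 24 listed, 22 were lower at 24 h, 1 was higher and 1 was not called, with a median of -0.76. By comparison 19.9% of all genes were called lower. Ankrd1, a nuclear ankyrin protein and classical YAP target, had 41.5, 44.3, 37.8 and 39.4 CPM at 24 h, against 129, 151, 143 and 164 CPM at 0 h (-1.85 ± 0.066, adjusted p = 1.37e-19). Acta2, smooth muscle actin, had 342, 322, 332 and 371 CPM at 24 h, against 609, 674, 681 and 686 CPM at 0 h (-0.95 ± 0.046, adjusted p = 3.08e-17). Cald1, an actin-binding regulator of contraction, had 1125, 1037, 1035 and 1031 CPM at 24 h, against 2255, 2554, 2465 and 2441 CPM at 0 h (-1.20 ± 0.041, adjusted p = 8.06e-21). In these 3 genes every 24 h library lay well below every 0 h library. Vcl (vinculin, which links integrins to actin) fell (-0.97 ± 0.045), the factor Srf (-0.67 ± 0.066), the myosin light chain Myl9 (-0.76 ± 0.065) and Actb (-0.52 ± 0.036). The one riser was Tagln2 (transgelin 2, 0.60 ± 0.06), and Tpm2 was not called. Of the exonic bases of Vcl, 25.5% are shared with Ap3m1 on the opposite strand. At 6 h the median of the list was -0.23 against the same controls. In 24 h against 6 h, 22 members were lower at 24 h, where 26.3% of all genes were lower.

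The promoters of Vcl and Myl9 are given as the largest falls among the listed genes whose promoter holds a CArG box, the element that SRF binds. Both hold the box by this choice. In this window 1.73% of the 27025 genes hold the box. So do 5 of the 19 matched members of the list (26.3%: Actg1, Cnn2, Myl9, Srf and Vcl). Capitals mark the box; Vcl is from chr14:20929148-20929427 (plus strand) and Myl9 from chr2:156775214-156775493 (plus strand), with the same length, source and build as above.
Vcl: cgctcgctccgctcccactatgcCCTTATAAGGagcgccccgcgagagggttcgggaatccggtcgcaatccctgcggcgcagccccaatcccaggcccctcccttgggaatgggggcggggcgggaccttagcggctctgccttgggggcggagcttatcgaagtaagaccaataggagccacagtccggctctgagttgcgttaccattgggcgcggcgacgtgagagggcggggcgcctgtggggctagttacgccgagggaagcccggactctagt
Myl9: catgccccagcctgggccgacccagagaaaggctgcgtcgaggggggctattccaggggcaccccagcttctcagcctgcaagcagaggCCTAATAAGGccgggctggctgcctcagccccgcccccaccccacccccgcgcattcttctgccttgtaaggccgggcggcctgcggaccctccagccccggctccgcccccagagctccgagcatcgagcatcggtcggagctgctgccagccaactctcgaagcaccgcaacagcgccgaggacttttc
Other members with large falls, such as Ankrd1 and Cald1, had no such letters within these 280 bases.

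Integrins, the receptors that tie cells to matrix, were mostly lower: 10 of 16 fell and 1 rose, with a median of -0.34. Itgb1, the beta 1 chain shared by most collagen receptors, had 1488, 1389, 1430.1 and 1432 CPM at 24 h, against 1829.8, 1971, 1962 and 1961 CPM at 0 h (-0.43 ± 0.037, adjusted p = 5.08e-11). Its collagen-binding partners Itga1 (-0.79 ± 0.072) and Itga2 (-0.70 ± 0.21) fell too. Itga6, a laminin receptor chain, was the 1 that rose (0.31 ± 0.069).

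In the TGF-beta pathway 12 of 20 members fell and 3 rose. The ligands moved apart: Tgfb2 had 58.01, 55.6, 55.5 and 54.9 CPM at 24 h, against 25.6, 29.98, 26.1 and 29.2 CPM at 0 h (1.01 ± 0.068, adjusted p = 1.04e-13), and Tgfb3 had 216, 235, 223 and 209.5 CPM at 24 h, against 363, 367, 348 and 346 CPM at 0 h (-0.69 ± 0.043, adjusted p = 1.87e-14). The inhibitors and targets Smad7 (-0.57 ± 0.097), Skil (-0.46 ± 0.064) and Pmepa1 (-0.36 ± 0.044) fell. Of 25 BMP and activin genes, 13 fell and 4 rose. The largest falls joined ligands and antagonists: Nog had 6.92, 6.23, 6.43 and 4.79 CPM at 24 h, against 28.9, 22.3, 22.8 and 23.3 CPM at 0 h, Fst (follistatin, which binds activin) fell (-1.78 ± 0.073), Bmp4 (-1.41 ± 0.09) and Inhba, a subunit of activin, (-1.29 ± 0.065).

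Lipid synthesis genes rose. Of 25 genes of cholesterol synthesis and uptake, 23 were higher at 24 h and none was lower, with a median of 0.50, and of 15 genes of fatty acid synthesis 12 were higher, with a median of 0.50. Their courses differed. Against the same 0 h libraries the cholesterol median was 0.49 at 1 h, 0.76 at 2 h and 0.35 at 6 h. The fatty acid median was 0.025, 0.27 and 0.16 at these times. Scd2, a desaturase that makes monounsaturated fatty acids, had 1433, 1391, 1486 and 1355 CPM at 24 h, against 622, 667, 627 and 666 CPM at 0 h (1.13 ± 0.04, adjusted p = 1.62e-20). Elovl6, an elongase of saturated chains, had 115, 107, 114 and 120.3 CPM at 24 h, against 38.7, 42.6, 39.5 and 38.2 CPM at 0 h (1.52 ± 0.058, adjusted p = 9.97e-20). Among sterol enzymes, Tm7sf2 had 29.3, 28.1, 33.9 and 28.2 CPM at 24 h, against 12.2, 14.4, 12.4 and 13.4 CPM at 0 h (1.19 ± 0.092, adjusted p = 2.64e-12), Dhcr7 rose by 0.91 ± 0.068 and Mvd by 0.86 ± 0.064. The 2 higher members of the 8 cholesterol efflux genes, Abcg1 and Abca1, lost that call in the fit of all 20 libraries (adjusted p = 0.128 and 0.31).

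Genes of ribosome making were back near or below their 0 h level. Of 31 ribosome biogenesis genes, 1 was higher and 8 were lower at 24 h, against 30 higher and 1 lower at 6 h against the same controls, when 25.9% of all genes were higher and 24.7% lower. The 8 lower members at 24 h are near the share of all genes that were lower, 19.9%. The medians were 0.75 at 6 h and -0.094 at 24 h. Npm1, a nucleolar chaperone, had 441, 409.7, 414 and 441 CPM at 24 h, against 444, 500.4, 507 and 508 CPM at 0 h (-0.20 ± 0.045, adjusted p = 5.84e-04, and 0.0602 in the fit of all 20 libraries). Cytosolic ribosomal protein genes fell slightly: 27 of 46 were lower and none higher, with a median of -0.13, and 15 of the same 27 genes were called lower in the fit of all 20 libraries. Without 24 h replicate 1, 2 were called higher and 20 lower. Of 21 translation factors, 9 were lower and none higher, led by the elongation factors Eef1a1 (-0.47 ± 0.034) and Eef2 (-0.44 ± 0.039). Ribosomal protein genes and Eef1a1 have many near-identical pseudogenes, so their counts are uncertain.

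The same return held for protein folding and sugar use. Of 30 genes of ER folding and secretion, 15 were lower and 1 higher at 24 h, after 26 higher at 6 h, when 25.9% of all genes were higher. Hspa5 (BiP, the main ER chaperone) had 1424, 1341, 1352 and 1355 CPM at 24 h, against 1799, 1923, 1877 and 1982 CPM at 0 h (-0.47 ± 0.038, adjusted p = 8.53e-12). The glycolytic genes had a median of 1.15 at 6 h and 0.033 at 24 h, when 6 were higher and 5 lower of 19. Slc2a1, the glucose transporter GLUT1, averaged 113, 159.5, 246, 278 and 90.9 CPM at 0, 1, 2, 6 and 24 h, and it had 92.6, 88.3, 94.9 and 87.7 CPM at 24 h, against 113, 115, 106 and 119.7 CPM at 0 h (-0.32 ± 0.052, adjusted p = 7.61e-06). Pkm, pyruvate kinase, stayed higher, at 1412, 1512, 1555 and 1535 CPM at 24 h, against 1004, 975, 949 and 1036 CPM at 0 h (0.60 ± 0.04, adjusted p = 6.27e-14). Of 15 hypoxia genes 8 were lower at 24 h, among them Bnip3 (-0.53 ± 0.073), a mitophagy receptor, and 3 higher, among them the carbonic anhydrases Car9 (1.23 ± 0.12) and Car12 (1.21 ± 0.15).

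Smaller shifts were seen in energy and turnover genes. Of 26 subunits of oxidative phosphorylation, 12 were higher and 1 lower, led by Cox5a (0.44 ± 0.07). Of 25 proteasome subunits, 13 were higher and none lower, led by Psmc5 (0.37 ± 0.055), and 7 of the same 13 genes were called in the fit of all 20 libraries. Without 0 h replicate 1, 12 were higher and 1 was lower. The proteasome median was 0.41 at 6 h and 0.14 at 24 h, and that of oxidative phosphorylation 0.27 and 0.16. At 6 h, 24 proteasome and 21 oxidative phosphorylation genes were above 0 h, where 25.9% of all genes were higher. In 24 h against 6 h, 21 proteasome genes were lower and none higher. Of oxidative phosphorylation genes 12 were lower and 2 higher, where 26.3% of all genes were lower and 22.6% higher. Of 27 genes of autophagy and the lysosome, 12 were lower and 3 higher, and the protease Ctsl (cathepsin L) fell (-0.50 ± 0.037). Of 30 amino acid response genes and tRNA synthetases, 8 rose and 8 fell (5 fell in the fit of all 20 libraries). Ddit4 (REDD1), which restrains mTORC1, had 81.6, 90.5, 103 and 94.2 CPM at 24 h, against 27.2, 27.7, 27.2 and 26.1 CPM at 0 h (1.77 ± 0.067, adjusted p = 9.97e-20). The cystine transporter Slc7a11 fell (-0.63 ± 0.067).

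**Figure D5:**
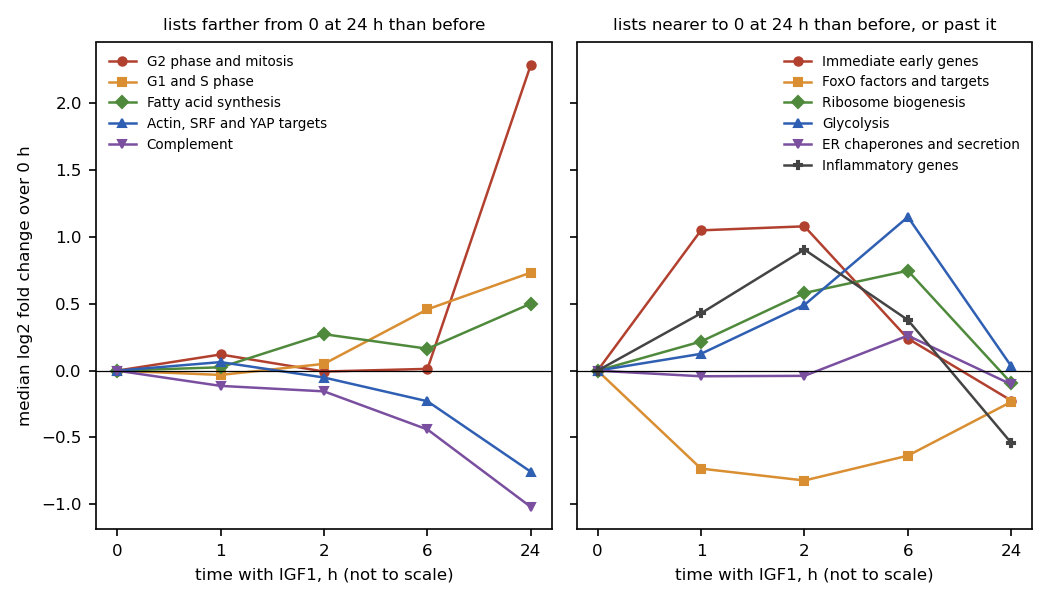
Median log2 fold change against 0 h of the members of 11 gene lists at 1, 2, 6 and 24 h with IGF1 (ordinal time axis; 0 h is 0 by definition). Left, lists farther from 0 at 24 h than at any earlier time, led by mitotic genes at 2.29; right, lists whose median was farthest from 0 between 1 and 6 h; all comparisons share the 4 control libraries.

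Inflammatory genes ended below 0 h. Of 20 tested, 12 were lower and 3 higher at 24 h, with a median of -0.54, whereas 13 were higher and none was lower at 2 h, when 13.9% of all genes were higher. Cxcl12, a chemokine that retains leukocytes and progenitors, had 146, 159, 138 and 129 CPM at 24 h, against 313, 332, 335 and 343 CPM at 0 h (-1.21 ± 0.051, adjusted p = 1.88e-18). Socs3, an inhibitor of cytokine signalling, fell (-0.94 ± 0.08) and Ptgs2 (COX-2) (-0.61 ± 0.11), while the prostaglandin E synthase Ptges rose by 0.77 ± 0.098. Complement genes made by fibroblasts fell in 7 of 9 cases, with a median of -1.02. C3, the central component, had 15.3, 15.3, 17.5 and 17.1 CPM at 24 h, against 39.5, 31.4, 34.9 and 37.3 CPM at 0 h (-1.13 ± 0.087, adjusted p = 2.35e-12). Cd55, a membrane protein that protects cells from complement, rose by 0.57 ± 0.053. Macrophage transcripts were present in every library, with a summed level of 202 to 362 CPM at 24 h and 277 to 348 CPM at 0 h over 13 markers, none at 0 in either group, and 0 of the 13 were called by edgeR, DESeq2 or limma voom (1 at an unadjusted p under 0.05 in edgeR). Of the 13, 2 were called lower without 24 h replicate 4, and 1 without 0 h replicate 2, with no count filter or with a replicate block. At 2 h, 9 of the 13 were called higher than at 0 h and none lower, with a median of 1.12. The part of macrophage transcripts in these results, the 2 h level of inflammatory genes included, was not tested.

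Of 25 growth factors and receptors, 14 were lower and 2 higher, where 19.9% of all genes were lower and 16.2% higher. The lower count was 9 without 24 h replicate 1. The higher count was 5 without 0 h replicate 1, 4 without 24 h replicate 2, and 1 without 0 h replicate 2 or without 24 h replicate 4. Fgf7, an epithelial growth factor of stromal origin, had 19.2, 14.02, 17.97 and 19.4 CPM at 24 h, against 33.7, 34.8, 37.4 and 39.4 CPM at 0 h (-1.04 ± 0.091, adjusted p = 4.55e-11), and its relative Fgf10 fell (-1.02 ± 0.14). Ereg (epiregulin), a ligand of the EGF receptor, had 12.9, 12.8, 12.9 and 16.3 CPM at 24 h, against 25.9, 36.1, 27.3 and 34.1 CPM at 0 h (-1.17 ± 0.11, adjusted p = 2.99e-10). The clock output factors Dbp (0.94 ± 0.17) and Nfil3 (-0.72 ± 0.11) moved in opposite directions, and of 18 clock genes 3 rose and 7 fell. Of the exonic bases of Dbp, 18% are shared with Sphk2 on the opposite strand. Antioxidant genes split, 5 higher and 8 lower of 21, with Nqo1 up by 0.91 ± 0.082 and the secreted Gpx3 at 297, 326, 327 and 309.6 CPM at 24 h, against 676, 594, 630.2 and 663 CPM at 0 h (-1.03 ± 0.045, adjusted p = 2.80e-18). Of 19 interferon response genes, 1 was higher and 3 lower. The higher count turned on single libraries: it was 4 without 0 h replicate 3, 3 without 24 h replicate 3, and 0 without 0 h replicate 1 or 4 or without 24 h replicate 1 or 4, while the lower count was 3 in each.

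Markers of other cell types were present at differing levels, and those of macrophages, given above, had the highest sums. T and B cell markers summed to at most 1.09 CPM at 24 h and 0.356 CPM at 0 h, and keratinocyte markers to at most 4.97 CPM at 24 h and 7.47 CPM at 0 h. Endothelial markers came to 26.2 to 31.2 CPM at 24 h and 41.4 to 43.9 CPM at 0 h, most of it from Tek (an angiopoietin receptor, -0.70 ± 0.079). Only 2 of the 8 endothelial markers were tested, and the other went up without being called (0.51). Without 24 h replicate 2, 1 endothelial marker was called higher. Schwann cell markers came to 98.2 to 108 CPM at 24 h and 76.2 to 82.9 CPM at 0 h. Cartilage markers came to 51.2 to 64.4 CPM at 24 h and 68.8 to 106 CPM at 0 h. The sums of pericyte and smooth muscle markers were 39.5 to 50.9 CPM at 24 h and 36.7 to 44.9 CPM at 0 h. Those of bone markers were 26.2 to 29.1 and 28.9 to 34.6 CPM, and those of adipocyte markers 19.4 to 25.5 and 23.7 to 29.9 CPM. Skeletal muscle markers came to 8.75 to 22.3 CPM at 24 h and 3.18 to 4.57 CPM at 0 h. Of these the fast myosin Myh1 had 5.68, 5.87, 5.40 and 4.66 CPM at 24 h, against 0.699, 0.813, 0.384 and 0.475 CPM at 0 h (3.17 ± 0.26, adjusted p = 1.46e-11). Its neighbour Myh4 had 1.59, 1.38, 1.78 and 1.15 CPM at 24 h, while 3 of the 4 libraries at 0 h had no read and the remaining library had 1. Myosin heavy chain genes are near-identical, so reads may be split between them. The highest skeletal muscle sum was that of 24 h replicate 2. Not every muscle gene rose: Acta1 (skeletal actin) had 1.66, 6.41, 1.78 and 1.34 CPM at 24 h. At 0 h Acta1 had 2.7, 2.59, 1.98 and 2.14 CPM, so only 24 h replicate 2 lay above the 0 h libraries. The share of these cells in the results above was not tested.

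The authors' deposited table of their own comparison of 24 h with 0 h lists 12207 genes, of which 3713 have an adjusted p under 0.05, 1857 higher and 1856 lower. Of the 12191 genes found in both, 4787 were called here and 3657 were called both here and in the authors' deposited table, all 3657 with the same direction.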

How the data were processed

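Bulk RNA-seq was analysed from the authors' table of read counts per gene, raw and not normalized. Per the submitters' processing notes, STAR, FastQC, edgeR and the mouse build mm10 were used. The sources used here give neither their versions nor whether counting used strand. Reads of overlapping genes on opposite strands therefore cannot be told apart. Beside the genes marked in the text, 8 named genes share 0.295% to 5.37% of their exonic bases in this way. All 20 libraries were scaled by TMM, and CPM are scaled by those factors. Genes were kept by edgeR's filterByExpr over the 8 libraries compared, and 24 h was tested against 0 h with edgeR 4.0.16 (quasi-likelihood F test, R 4.3.3), without covariates, on 4 against 4 libraries. p-values were adjusted by Benjamini and Hochberg over all 13613 genes, and a gene was called at an adjusted p under 0.05. Comparisons of 1, 2 and 6 h with 0 h, and of 24 h with 6 h, used the same test on their own 8 libraries. The authors' deposited table of 24 h against 0 h gives log2 fold changes and p-values from edgeR, and it was used for the comparison of calls alone.

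The gene lists and the rules for naming genes were chosen with earlier results of these data known. The text names the 12 largest rises and falls among called genes with a mean of at least 5 CPM at either time. Genes whose libraries overlapped and gene models without a proper name were left out of that ranking. The text also names the 6 largest differences in CPM each way, up to 6 called members per list, fixed IGF and tendon genes and members that did not pass. Some members that the rule covers are not reported here. Further genes, 41 in all, were named after their values were seen: subunits and partners beside a gene of the rule (such as Col6a1, Cdk1 and Foxo1), genes with a shown promoter, and the genes of the closing observations. Gene positions are from GENCODE M21 on GRCm38, which has mm10 coordinates, and 13606 of the 13613 tested identifiers matched. Alternatives were DESeq2 1.42.0, limma 3.58.1 (voom), other size factors and filters, a replicate block, 1 fit of all 20 libraries, an adjusted p under 0.01 and leaving out each library. After the data had been seen, 0 h replicate 1 and 24 h replicate 4 were also left out together. Replicate 2 at 0 h carries the description of replicate 1 in the labels and was taken by its title and column name. Same-numbered libraries at 24 h and 0 h did not deviate together.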

Additional observations from a re-analysis of the deposited data

Results flagged for a closer look

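For each gene named here except Acta1, the 4 libraries of each time were checked for one that lay far from the other 3, with a gap to its nearest neighbour divided by the group's range above Dixon's 95% critical value. Of 336 sets of 4 libraries, 27 held such a library (8.04%), where chance gives about 1 in 20. The library that came up most often was 0 h replicate 1, the one that also stood apart in its counts. Replicate 1 at 24 h held the highest level of Cald1 (1125 CPM, the others 1031 to 1037) and Hspa5 (1424 CPM, the others 1341 to 1355) and the lowest level of Dpt (123 CPM, the others 141 to 144) and Mmp14 (882 CPM, the others 947 to 961). Replicate 2 at 24 h held the highest level of Cdkn1a (299 CPM, the others 283 to 286) and the lowest level of Vcan (249.6 CPM, the others 260.1 to 261). Replicate 3 at 24 h held the highest level of Adamts2 (380.2 CPM, the others 337 to 344) and Nfil3 (12 CPM, the others 10.5 to 10.6) and the lowest level of Mcm10 (4.59 CPM, the others 6.89 to 7.01). Replicate 4 at 24 h held the highest level of Ereg (16.3 CPM, the others 12.8 to 12.9) and the lowest level of Col8a1 (314 CPM, the others 332 to 336). Replicate 1 at 0 h held the highest level of Eef2 (3915 CPM, the others 3436 to 3509), Nog (28.9 CPM, the others 22.3 to 23.3) and Spon2 (18.9 CPM, the others 15.6 to 16.1) and the lowest level of Acta2 (609 CPM, the others 674 to 686), Cox5a (26.8 CPM, the others 30.5 to 31.1), Ctsl (1781 CPM, the others 1893 to 1913), Itgb1 (1829.8 CPM, the others 1961 to 1971), Lox (12950.3 CPM, the others 14257 to 14286) and Npm1 (444 CPM, the others 500.4 to 508). Replicate 2 at 0 h held the highest level of Myh4 (0.0508 CPM, the others at 0) and Skil (56.7 CPM, the others 53.3 to 53.6) and the lowest level of Car9 (5.95 CPM, the others 8.45 to 8.66). Replicate 3 at 0 h held the lowest level of Col5a2 (11251 CPM, the others 11823 to 11884). Replicate 4 at 0 h held the highest level of Pappa (33.9 CPM, the others 24.6 to 26.1) and Rrm1 (100.3 CPM, the others 94.5 to 95.03) and the lowest level of Pappa2 (7.31 CPM, the others 9.22 to 9.60).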

How the results depend on the processing

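The number of genes called at 24 h against 0 h was 4911, and between 4336 and 4846 when 1 library was left out. It was 4918 with RLE size factors, 4823 with DESeq2, 4885 with limma voom, 3763 in 1 fit of all 20 libraries and 3544 at an adjusted p under 0.01. A replicate block gave 4656 calls, and among the named genes it changed the call of Col11a2 alone. Same-numbered libraries correlated by -0.054 to 0.0085 in their deviations from the group means, so the numbers were not taken to pair them. Of 861 values of the counts with 5 or more called genes, 848 stayed within 1.5 times the reported count and 13 did not. Of 972 values of the smaller counts, 894 did and 78 did not, among them higher interferon response genes, higher growth factors and receptors, higher ribosomal proteins and markers of other cell types. In the fit of all 20 libraries the called members were 15 lower ribosomal proteins, 5 lower amino acid response genes, 3 lower glycolytic genes, 7 higher proteasome subunits, 5 higher and 5 lower collagen processing genes, and 3 higher and 7 lower proteases and inhibitors. At an adjusted p under 0.01, 3 ERK regulators were higher and 9 growth factors and receptors lower. Without 0 h replicate 1 and 24 h replicate 4, 3 ERK regulators were higher and 5 amino acid response genes lower. Lower growth factors and receptors numbered 9 to 14 when 1 library was left out. Of 2855 values of named genes other than Acta1, 2828 kept direction and call, 9 lost the call, 8 gained it and 10 changed sign. Each change of sign was in a gene not called, near 0. Leaving out 1 library gave -0.026 to 0.029 for Ccnd1, -0.030 to 0.011 for Rrm1 and -0.011 to 0.042 for Tpm2, and leaving out both libraries gave 0.013 for Ccnd3 and 0.0039 for Rrm1. Scx was also not called without those 2 libraries (adjusted p = 0.0857). The causes were not tested. The 24 h libraries were the shallower ones, and low genes are the least precise. Fam84a and Myh4 rest on few reads at 0 h.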

Other observations

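Several genes outside the lists above, picked after their values were seen, changed strongly and without overlap between the times. Spon2 (spondin 2, a secreted matrix protein) had 69.4, 74.1, 70.3 and 69.3 CPM at 24 h, against 18.9, 16.1, 15.6 and 15.8 CPM at 0 h (2.09 ± 0.071, adjusted p = 8.06e-21). Crabp1, a cytosolic binding protein of retinoic acid, had 119, 119, 142 and 141 CPM at 24 h, against 33.3, 28.7, 31.6 and 40.1 CPM at 0 h (1.96 ± 0.089, adjusted p = 6.94e-12). Slc40a1 (ferroportin, the iron exporter) had 25.1, 26.8, 23.02 and 32.4 CPM at 24 h, against 7.36, 7.37, 8.34 and 8.69 CPM at 0 h (1.76 ± 0.11, adjusted p = 1.82e-14), and at 6 h it had been lower than at 0 h (-0.50). Ptn (pleiotrophin, a heparin-binding growth factor) rose by 1.41 ± 0.086.

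The following genes were picked because they were higher at 24 h and stand for no set. Dpt (dermatopontin) had 123, 144, 144 and 141 CPM at 24 h, against 47.4, 51.7, 42.1 and 50.9 CPM at 0 h (1.52 ± 0.063, adjusted p = 1.20e-18). Cd248 (endosialin) had 384, 399.7, 403 and 394 CPM at 24 h, against 209, 196, 181 and 181 CPM at 0 h (1.04 ± 0.046, adjusted p = 3.20e-18). Cd34 rose by 0.74 ± 0.055, Ly6a (Sca-1) by 0.67 ± 0.045 and Pi16 by 0.52 ± 0.076. Scara5, a ferritin receptor, rose by 1.36 ± 0.061.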
